A study of Mus musculus with 9 samples.

Results

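Kinesins are motor proteins that walk along microtubules. The deposited gene table lists 42 genes, of 28998 in all, whose symbol begins with Kif, an optional letter and a digit, the rule by which the family was chosen. By known function, 13 of them were placed with cell division (mitotic kinesins) and 15 with the movement of organelles and vesicles (transport kinesins). A further 13 were placed with cilia and other roles. These classes were drawn up with earlier results of these data known. The remaining entry, Kif16bos, is an antisense RNA and encodes no motor; it was listed at 0 in all libraries but 1 Control library (0.04 FPKM). A mean of at least 1 FPKM (fragments scaled to transcript length and library depth) over the 9 libraries was required for the tests. It was met by 11 mitotic, 10 transport and 4 other kinesins, 25 genes in all.

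The cells came from bone marrow monocytes of wild-type C57 mice that had 7 days of GM-CSF, a growth factor that turns monocytes into macrophages, and every group shares this. WGFT17 cells and JHU083 cells then had the drug of that name for 36 h, without a dose in the labels. What Control cells received, and for how long, is not given, so an effect of culture time cannot be told apart from that of a drug. The labels call the cells BMDMs (bone marrow-derived macrophages). There were 3 libraries in each group. WGFT17 is a code name, and JHU083 is known as a prodrug of the glutamine antagonist DON. Whether libraries of a group came from separate animals or cultures is not said, so each p-value reflects no more than the scatter among these libraries, which may be technical.

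Dividing cells use mitotic kinesins to push spindle poles apart, hold and move chromosomes, trim microtubule ends and build the midzone where the cell is cut into daughters. Most of their genes are transcribed late in the cell cycle, in the G2 and M phases, and are silent in resting cells. Transport kinesins work in dividing and resting cells alike, and in macrophages they carry lysosomes, mitochondria and endosomes outward from the cell centre.

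Libraries summed to 56624220 to 69112134 estimated counts, of which about 4 stand for 1 read pair. Macrophage genes were high in every group, with 10 of 10 markers above 0. Their summed FPKM were 11250 to 12540 in WGFT17, 10870 to 11970 in JHU083 and 10080 to 10980 in Control. Lyz2 made up most of each sum, and single markers differed in both directions. Itgam averaged 99.1 FPKM in WGFT17 and 134.3 FPKM in Control, and Ptprc 15.1 FPKM and 9.52 FPKM. Markers of other tissues differed between libraries. Summed over 12 heart markers, FPKM were 0.20 to 0.24 in WGFT17, 63.1, 0.25 and 95.1 in replicates 1 to 3 of JHU083, and they reached 73.4 to 84.6 in Control. For 12 photoreceptor markers the sums were 1.78 to 2.26 in WGFT17, 3.20, 3.06 and 11.0 in JHU083, and 9.94 to 11.5 in Control. For 11 liver markers they were 111.6 to 240.1 in WGFT17, 190, 91.4 and 275.2 in JHU083, and 479.6 to 535.6 in Control. On the photoreceptor markers JHU083 replicate 3 lay with Control, and on the heart markers JHU083 replicate 2 stood apart from its group. On the liver markers every library of both drug groups lay below Control. Counts of kinesins and of listed genes called in comparisons with JHU083 are also given without replicate 3, when 15.7% of all tested genes were higher and 15.9% lower in JHU083 against Control.

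The summed level of the mitotic kinesins was far lower in WGFT17 cells than in either other group. The 13 genes summed to 8.30, 7.81 and 8.19 FPKM in WGFT17, 63.4, 58.8 and 65.0 FPKM in JHU083, and 56.5, 57.6 and 51.9 FPKM in Control. They made up 4.42 to 4.67% of the family's FPKM in WGFT17, 27.0 to 30.5% in JHU083 and 29.6 to 30.5% in Control. The 15 transport kinesins summed to 148.3, 148.7 and 149.5 FPKM in WGFT17, 137.3, 138.7 and 128.3 FPKM in JHU083, and 111.0, 113.5 and 106.9 FPKM in Control. Mitotic and transport kinesins therefore lay on opposite sides of Control in WGFT17, whereas in JHU083 both FPKM sums lay above Control. FPKM ran higher in JHU083 in general: over all tested genes, log2(FPKM + 0.1) lay 0.093 above Control at the median. The test on counts, given below, called 2 of the 11 tested mitotic kinesins higher in JHU083. The 13 other kinesins summed to 20.2 to 21.2 FPKM in WGFT17, 19.2 to 20.1 FPKM in JHU083 and 16.8 to 19.1 FPKM in Control. In bulk RNA, fewer dividing cells and less mitotic RNA per cell cannot be told apart.

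**Figure D1:**
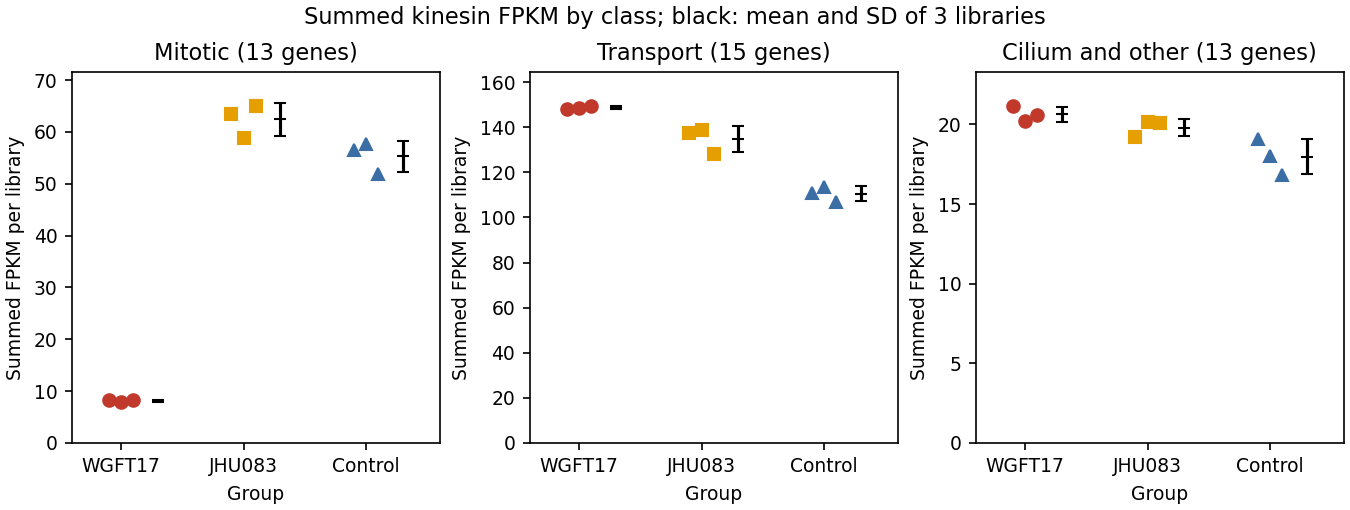
Summed FPKM (vertical axes, from 0) of the 13 mitotic, 15 transport and 13 other kinesins in each library (points) of the WGFT17, JHU083 and Control groups, with the mean and SD of 3 libraries in black. The WGFT17 libraries sit at 7.81 to 8.30 FPKM for mitotic kinesins, below all others, and at 148.3 to 149.5 FPKM for transport kinesins, above all others.

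All 13 kinesins placed in the mitotic class fell in WGFT17 against Control. Kif2a, a relative of the mitotic Kif2c that was placed with the other kinesins, rose by 0.36 on the log2 scale. In the fit without a filter on low values, which covers all 13, edgeR's quasi-likelihood test called 13 lower (adjusted p under 0.05 after Benjamini-Hochberg adjustment over all genes) and none higher, with a median log2 change of -2.88; of all genes in that fit 15.3% were lower. In the main test, 11 of the 11 mitotic kinesins tested were lower, where 58.0% of all tested genes changed and 30.0% were lower. Their median log2 change was -2.91, a level 7.51-fold lower, with a range of -3.46 for Kif4 to -1.91 for Kifc5b, beside a median of 0.0044 over all tested genes. Since 9 of the 11 averaged under 1 FPKM in WGFT17, they passed the filter through the other groups, and the count over all 13 is the one to read. The FPKM of all 3 WGFT17 libraries lay below those of all 3 Control libraries for 11 of the 11, which held for 28.2% of all tested genes. Estimated counts of these 11 genes ran from 116 to 533 in WGFT17 libraries and from 504 to 4474 in Control libraries.

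Kinesins that build the bipolar spindle fell in WGFT17. Kif11 (chromosome 19, 37376403 to 37421859), the motor that slides opposed microtubules apart, had 0.68, 0.68 and 0.64 FPKM in WGFT17, 5.89, 5.83 and 6.87 FPKM in JHU083, and 4.89, 4.70 and 4.32 FPKM in Control. No WGFT17 library came near the other groups, and the log2 change against Control was -2.91 (SE 0.091, adjusted p = 6.68e-10). Kif15, which can stand in for Kif11, had 0.22, 0.18 and 0.18 FPKM in WGFT17, 1.75, 1.64 and 1.88 FPKM in JHU083, and 1.44, 1.40 and 1.27 FPKM in Control. The fall of Kif15 was as large as that of Kif11, at -2.91 (SE 0.12, adjusted p = 4.14e-09). Kifc1, a motor of the opposite direction that focuses spindle poles, had 1.57, 1.83 and 1.50 FPKM in WGFT17, 10.8, 9.04 and 8.45 FPKM in JHU083, and 8.00, 9.08 and 8.11 FPKM in Control. Its log2 change against Control was -2.46 (SE 0.11, adjusted p = 1.21e-08). The WGFT17 values lay below those of both other groups, which overlapped each other. Kifc5b, a close mouse relative of Kifc1, had 0.48, 0.58 and 0.74 FPKM in WGFT17, 2.82, 2.38 and 2.23 FPKM in JHU083, and 2.25, 2.28 and 1.81 FPKM in Control, a change of -1.91 (SE 0.18). Transcripts of Kifc1 and Kifc5b share 923 stretches of 75 bases (25.4% of Kifc1 and 24.5% of Kifc5b), so the split of reads between them is uncertain.

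Motors that act on chromosomes and microtubule ends fell too. Kif4 (chromosome X), a chromokinesin that binds chromosome arms and the midzone, had 0.34, 0.28 and 0.44 FPKM in WGFT17, 4.51, 4.45 and 5.39 FPKM in JHU083, and 3.82, 3.73 and 3.35 FPKM in Control. With a log2 change of -3.46 (SE 0.15, adjusted p = 8.17e-09), this was the largest fall among the tested members, 11.0-fold below Control. Kif22, the chromokinesin that pushes arms away from the poles, had 0.94, 0.84 and 0.99 FPKM in WGFT17, 4.61, 4.72 and 5.38 FPKM in JHU083, and 4.27, 4.79 and 4.55 FPKM in Control. It fell by 2.40 on the log2 scale (SE 0.10, adjusted p = 5.35e-09). Kif2c, which takes microtubules apart at centromeres, had 0.48, 0.49 and 0.72 FPKM in WGFT17, 5.34, 5.34 and 5.88 FPKM in JHU083, and 5.23, 5.07 and 4.81 FPKM in Control. The change was -3.26 (SE 0.14, adjusted p = 8.61e-09), and no WGFT17 library reached 1 FPKM. Kif18b, which limits the length of astral microtubules, had 0.63, 0.47 and 0.57 FPKM in WGFT17, 5.39, 4.70 and 4.72 FPKM in JHU083, and 5.17, 5.26 and 4.97 FPKM in Control, a change of -3.30 (SE 0.12, adjusted p = 2.02e-09).

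The kinesins of the midzone and of cell cleavage fell as well. Kif20a (chromosome 18), which brings the chromosomal passenger complex to the midzone, was the most abundant mitotic member on average over the libraries, with 1.68, 1.41 and 1.18 FPKM in WGFT17, 13.7, 12.7 and 13.5 FPKM in JHU083, and 12.9, 14.1 and 12.2 FPKM in Control. It was 9.83-fold lower in WGFT17 than in Control (log2 change -3.30, SE 0.12, adjusted p = 1.51e-09). Kif23, the motor of the centralspindlin complex, had 0.45, 0.39 and 0.49 FPKM in WGFT17, 4.05, 3.79 and 5.47 FPKM in JHU083, and 4.65, 4.07 and 3.41 FPKM in Control. Its change was -3.27 (SE 0.17, adjusted p = 2.93e-08), and JHU083 replicate 3 was the highest of the 9 libraries. Kif20b, which acts late in cleavage, had 0.63, 0.45 and 0.54 FPKM in WGFT17, 2.83, 2.72 and 3.36 FPKM in JHU083, and 2.24, 1.80 and 1.93 FPKM in Control. This member fell by 1.98 on the log2 scale (SE 0.15, adjusted p = 6.49e-07), the smallest fall among the 11 tested mitotic kinesins but that of Kifc5b.

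A further 2 mitotic kinesins lay under the filter. Kif14, a motor of the midbody, had 0.07, 0.08 and 0.11 FPKM in WGFT17, 1.23, 1.05 and 1.28 FPKM in JHU083, and 1.09, 1.05 and 0.92 FPKM in Control. In the fit without a filter its log2 change in WGFT17 against Control was -3.67 (SE 0.18, adjusted p = 4.89e-08). Kif18a, which aligns chromosomes at the spindle equator, had 0.13, 0.13 and 0.09 FPKM in WGFT17, 0.45, 0.52 and 0.64 FPKM in JHU083, and 0.49, 0.34 and 0.30 FPKM in Control. There the change was -1.76 (SE 0.24, adjusted p = 0.000206). Kif20a and Kif4 overlap genes on the other strand, Cdc23 over 2327 bases and Pdzd11 over 832 bases; the counting is not stated to use strand, so reads in these stretches are uncertain.

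**Figure D2:**
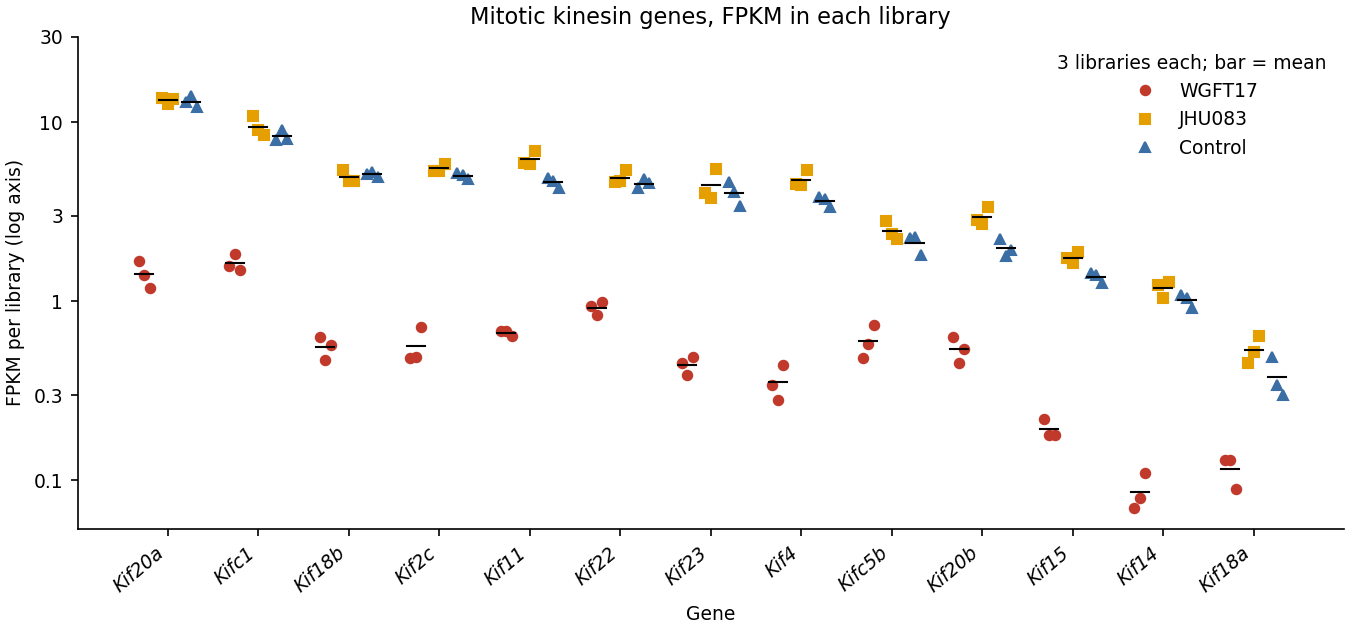
FPKM (log axis) of the 13 mitotic kinesins in each of the 9 libraries, WGFT17 as circles, JHU083 as squares and Control as triangles, with a bar at each mean of 3 libraries. For every gene the 3 WGFT17 points lie below all JHU083 and Control points, from the most abundant, Kif20a, to Kif14 and Kif18a, which lie under 1 FPKM on average.

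Promoters are shown because genes of late cell cycle are known to share short elements there: the cell cycle homology region, TTTGAA or TTCGAA, and CCAAT boxes upstream of it. Both were searched on both strands in RefSeq windows of 300 bases (250 before the annotated start and 50 after, GRCm38.p6), where the end base of a match may serve both motifs. Of 12 mitotic kinesins with an entry, 11 (91.7%) held the homology region, all as TTTGAA or its reverse complement TTCAAA, against 21.7% of all 27025 genes with an entry. CCAAT was found in 8 of the 12 (66.7%), against 41.1% of all genes, and both in the same 8 (66.7%), against 8.61%. In 9 of the 12 (75%) a homology region began within 30 bases of the start, which held for 3.4% of all 32851 entries. Among 10 transport kinesins with an entry, 1 (10%) held TTTGAA or TTCGAA, 3 (30%) held CCAAT and 0 held both. Among 10 of the other kinesins with an entry, 3 (30%) held TTTGAA or TTCGAA, 4 (40%) held CCAAT and 3 (30%) held both. The 3 with both were Kif24, Kif26b and Kif27. In Kif26b and Kif24 the homology region began 9 and 26 bases before the start. The only mitotic entry without the hexamer was that of Kif18a, and the promoter of Kif20a was not analysed here. The windows of Kif2c (chr4:117178723-117179022, minus) and Kif14 (chr1:136467598-136467897, plus) lie well inside the genes, which the deposited table starts at 117182639 and 136466343. The Kif1a window with TTTGAA (chr1:93082431-93082730, minus) does so too, with a gene start of 93101847. That of Kif27 (chr13:58354898-58355197, minus) does as well, with a gene start of 58359122. Matches in these windows are counted above but are not near those starts, and neither Kif2c nor Kif14 is among the 9. The Kif17 window (chr4:138262001-138262300, plus), counted as without a match, also lies inside its gene, which starts at 138250435.

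The 6 mitotic promoters below hold both elements within 80 bases before to 30 after the RefSeq start, and the 2 transport promoters stand beside them for contrast. They are written 5′ to 3′ in the direction of the gene. Capitals mark the homology region, which reads in reverse complement where it lies on the other strand, and the CCAAT box, which there reads ATTGG. Kif11 is at chr19:37376302-37376411 (plus strand), Kif18b at chr11:102925095-102925204 (minus), Kif22 at chr7:127042391-127042500 (minus) and Kif23 at chr9:61946770-61946879 (minus). Kif4 is at chrX:100625985-100626094 (plus), Kifc1 at chr17:33890604-33890713 (minus), Kif1c at chr11:70700468-70700577 (plus) and Kif3a at chr11:53567289-53567398 (plus).
Kif11: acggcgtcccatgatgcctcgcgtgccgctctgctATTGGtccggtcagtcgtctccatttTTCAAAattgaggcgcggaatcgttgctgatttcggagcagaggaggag
Kif18b: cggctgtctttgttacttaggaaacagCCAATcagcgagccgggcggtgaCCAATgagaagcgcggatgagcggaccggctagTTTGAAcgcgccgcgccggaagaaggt
Kif22: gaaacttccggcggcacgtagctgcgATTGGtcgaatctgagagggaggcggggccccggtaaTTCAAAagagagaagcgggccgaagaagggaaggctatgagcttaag
Kif23: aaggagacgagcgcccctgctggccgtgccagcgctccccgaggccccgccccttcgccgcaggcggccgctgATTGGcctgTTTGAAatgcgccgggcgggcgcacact
Kif4: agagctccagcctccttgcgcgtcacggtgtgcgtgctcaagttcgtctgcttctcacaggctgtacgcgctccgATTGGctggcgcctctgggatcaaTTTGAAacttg
Kifc1: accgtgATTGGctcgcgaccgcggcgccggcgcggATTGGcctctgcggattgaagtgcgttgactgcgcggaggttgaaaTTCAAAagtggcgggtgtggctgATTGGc
Kif1c: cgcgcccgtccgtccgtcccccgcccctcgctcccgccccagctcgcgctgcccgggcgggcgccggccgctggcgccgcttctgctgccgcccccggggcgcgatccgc
Kif3a: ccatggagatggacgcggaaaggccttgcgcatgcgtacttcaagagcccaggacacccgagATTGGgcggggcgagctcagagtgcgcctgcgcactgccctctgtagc
The 6 mitotic windows were picked for holding both elements, so that each has a CCAAT box is no result. In each of them a CCAAT box, on either strand, lies ahead of the homology region. The mitotic entries of Kif15, Kif18a, Kif20b and Kif2c hold no CCAAT. Of the 2 transport windows, also picked, Kif1c has neither element and Kif3a has the CCAAT box alone. A match is a string of letters in the genome and does not show that a factor binds.

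**Figure D3:**
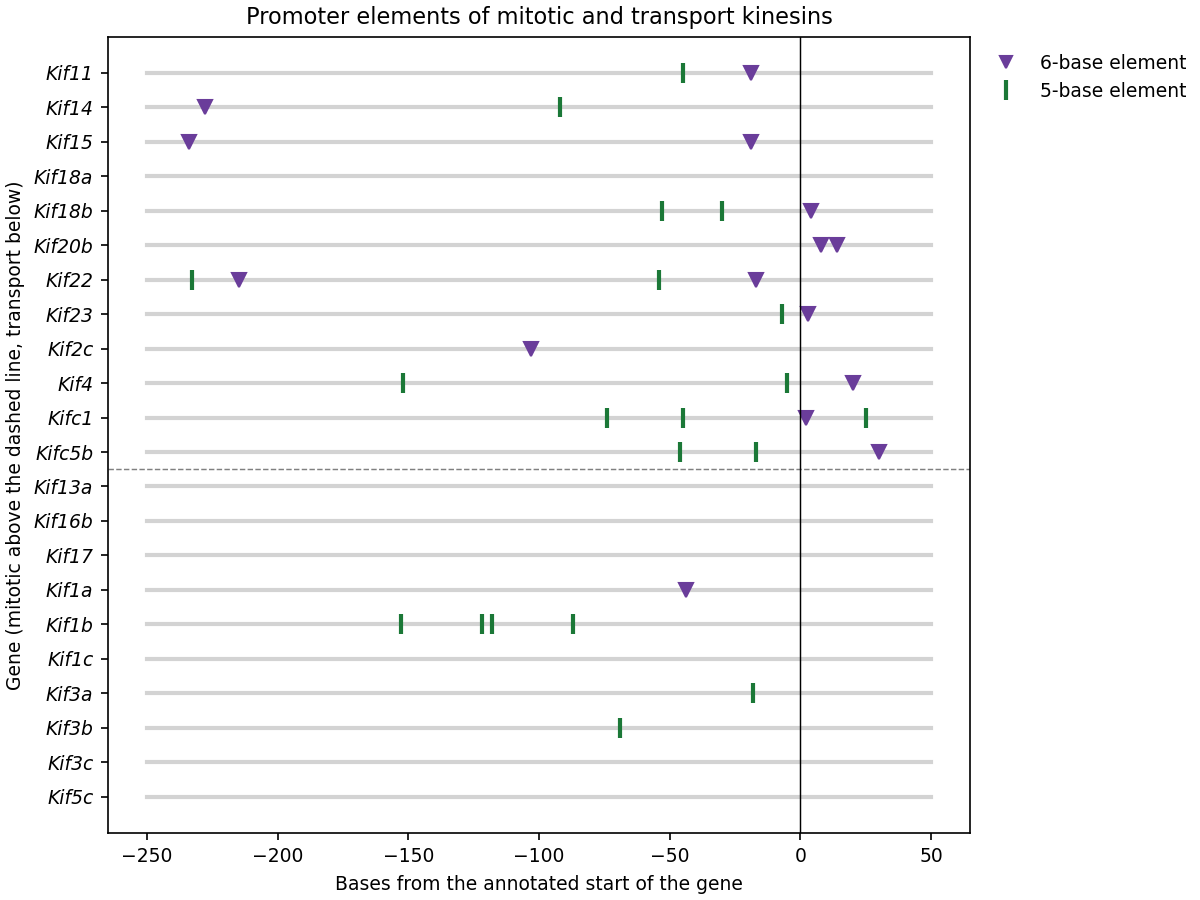
Positions of the 6-base element (TTTGAA or TTCGAA, triangles) and of the 5-base element (CCAAT, bars) on either strand, in bases from the annotated start (horizontal axis), for 12 mitotic kinesins above the dashed line and 10 transport kinesins below it. In 9 mitotic kinesins a 6-base element lies within 30 bases of the start; Kif1a and Kif1b have 2 entries each, drawn on one line, and Kif1a is the transport kinesin with the 6-base element.

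Transport kinesins changed far less, and mostly upward, in WGFT17 against Control. Of the 10 tested, 8 rose, 1 fell and 1 was not called, where 28.0% of all tested genes were higher. The median log2 change was 0.30 (1.23-fold), with a range of -0.35 to 0.61. In the fit without a filter, 10 of 15 were higher and 0 lower, against 12.6% of all genes higher. The WGFT17 libraries lay wholly above the Control libraries for 8 of the 10, against 45.0% of all tested genes. FPKM and counts differ in scale here: over all tested genes, the log2(FPKM + 0.1) values of WGFT17 lay 0.11 above Control at the median, while the count fit centres that median near 0. Folds and tests below are those of the count fit.

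Kif3a (chromosome 11, 53567379 to 53601967), a subunit of the heterotrimeric kinesin that also builds cilia, rose most among the 10 tested transport kinesins. It had 26.4, 25.9 and 24.9 FPKM in WGFT17, 22.9, 20.7 and 20.5 FPKM in JHU083, and 15.9, 17.5 and 13.4 FPKM in Control. Its log2 change in WGFT17 against Control was 0.61 (SE 0.082, adjusted p = 7.58e-05), and the groups did not overlap. The partner subunit Kif3b had 17.5, 15.9 and 17.1 FPKM in WGFT17, 17.3, 16.5 and 14.7 FPKM in JHU083, and 12.6, 11.8 and 12.0 FPKM in Control. Kif3b rose by 0.36 (SE 0.064, adjusted p = 0.000575). Kif3c, the other partner of Kif3a, had 3.42, 3.79 and 3.90 FPKM in WGFT17, 3.76, 3.81 and 3.39 FPKM in JHU083, and 3.28, 3.64 and 3.37 FPKM in Control. The groups overlapped, and the log2 change was 0.0023 (95% interval -0.17 to 0.17, adjusted p = 0.982). Kifap3, the non-motor subunit that binds these motors to cargo, fell: it averaged 7.03 ± 0.675 FPKM in WGFT17 and 8.01 ± 0.347 FPKM in Control (SD, n = 3 each), a log2 change of -0.30 (adjusted p = 0.00707).

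Conventional kinesin also rose. Kif5b (chromosome 18), its heavy chain outside neurons, which moves lysosomes and mitochondria, had 19.3, 19.8 and 19.4 FPKM in WGFT17, 17.4, 17.7 and 19.9 FPKM in JHU083, and 15.2, 14.1 and 13.2 FPKM in Control. All WGFT17 values exceeded all Control values, with a log2 change of 0.35 (SE 0.066, adjusted p = 0.000894). Its light chain gene Klc1 was not called, at 14.6 ± 0.160 FPKM in WGFT17 and 14.5 ± 0.726 FPKM in Control (SD, n = 3 each; adjusted p = 0.23).

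All 5 tested members of the related vesicle and endosome motors Kif1, Kif13 and Kif16 rose by small amounts. Kif1c, the most abundant kinesin, a vesicle motor that in human macrophages acts on podosomes, had 43.6, 44.8 and 45.7 FPKM in WGFT17, 40.5, 40.1 and 35.5 FPKM in JHU083, and 34.3, 36.6 and 35.7 FPKM in Control. The change of Kif1c was 0.22 (SE 0.056, adjusted p = 0.00532). Kif1b, which carries mitochondria and vesicle precursors, had 7.46, 7.95 and 8.16 FPKM in WGFT17, 7.27, 8.39 and 8.09 FPKM in JHU083, and 6.43, 6.19 and 6.18 FPKM in Control. Both drug groups lay above Control, in WGFT17 by 0.22 (SE 0.061, adjusted p = 0.0096). Kif13a, a motor of recycling endosomes, had 6.71, 6.24 and 6.45 FPKM in WGFT17, 6.20, 6.31 and 6.17 FPKM in JHU083, and 4.90, 4.73 and 4.65 FPKM in Control. It rose by 0.33 in WGFT17 (SE 0.052, adjusted p = 0.00025). Kif13b, a relative that carries membrane scaffolds, had 12.5, 13.7 and 12.8 FPKM in WGFT17, 10.4, 11.4 and 10.3 FPKM in JHU083, and 9.19, 9.33 and 9.05 FPKM in Control. The 3 groups stood in that order without overlap, and the rise in WGFT17 was 0.39 (SE 0.054, adjusted p = 0.000106). Kif16b, which moves early endosomes, had 4.74, 4.38 and 4.53 FPKM in WGFT17, 4.58, 4.89 and 4.54 FPKM in JHU083, and 3.70, 3.45 and 3.38 FPKM in Control, a rise of 0.27 in WGFT17 (SE 0.063, adjusted p = 0.00373).

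Kifc3, a motor of the opposite direction, was the transport member that fell. It had 3.62, 2.94 and 3.18 FPKM in WGFT17, 3.89, 3.99 and 2.95 FPKM in JHU083, and 3.41, 4.07 and 4.05 FPKM in Control. The groups overlapped, and the log2 change of -0.35 (adjusted p = 0.034) was lost without WGFT17 replicate 2 or 3 or Control replicate 2 or 3 (adjusted p of up to 0.118), and in the fit without a filter (adjusted p = 0.074). It was lost also with the filterByExpr filter (adjusted p = 0.0539) and in limma on log2(FPKM + 1) and log2(FPKM + 0.1) (adjusted p = 0.14 and 0.141).

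The remaining 5 transport kinesins, Kif1a, Kif5a, Kif5c, Kif17 and Kifc2, averaged 0.0189 to 0.927 FPKM. In the fit without a filter Kifc2 rose by 0.86 in WGFT17 against Control (SE 0.21, adjusted p = 0.00832). Kif5a, a neuronal heavy chain of conventional kinesin, rose by 1.20 (SE 0.39, adjusted p = 0.038).

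Long transcripts were somewhat higher in both drug groups, and transport kinesins are long. Across 11791 tested genes, the log2 change correlated with the length of the longest transcript at Spearman's rho 0.192 in WGFT17 against Control and 0.384 in JHU083 against Control; genes are not independent replicates. The quartile of longest transcripts (4598 bases and more) had a median log2 change of 0.12 in both comparisons, against -0.18 and -0.17 in the shortest quartile. It holds 8 of the 10 tested transport kinesins and 4 of the 11 mitotic ones. The part of length in the rises of transport kinesins was not tested.

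**Figure D4:**
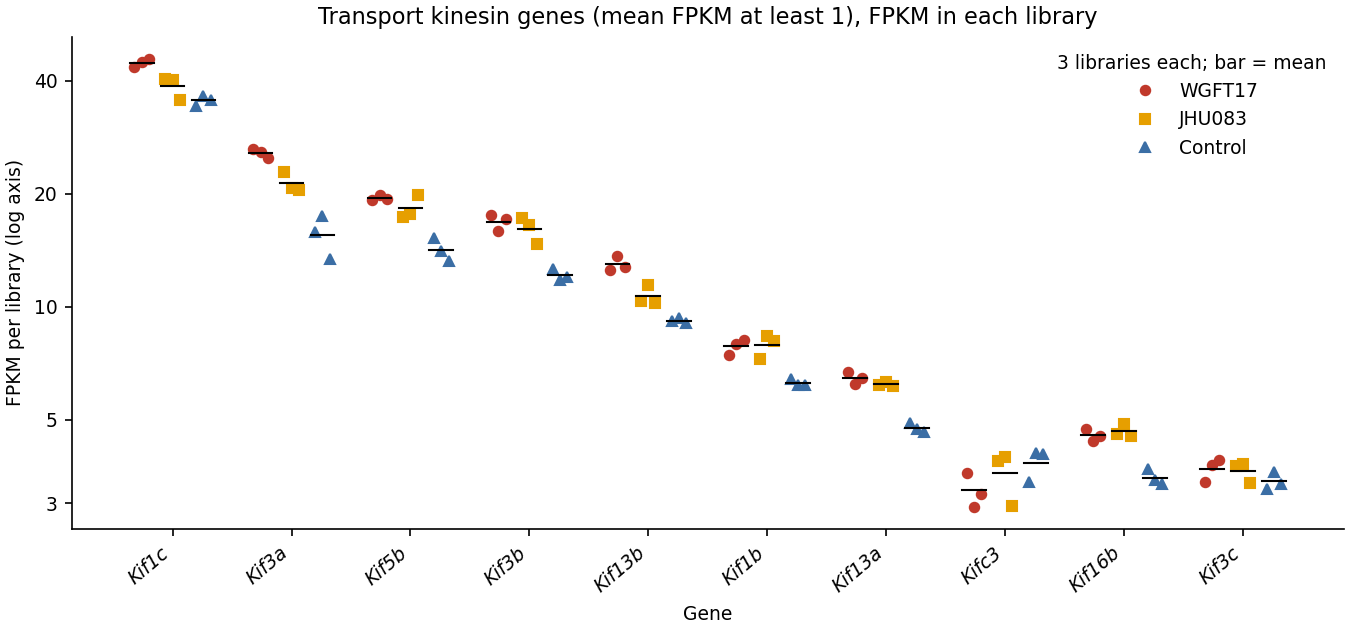
FPKM (log axis) of the 10 tested transport kinesins in each library, WGFT17 as circles, JHU083 as squares and Control as triangles, with a bar at each mean of 3 libraries. Kif3a shows the widest gap, 24.9 to 26.4 FPKM in WGFT17 and 13.4 to 17.5 FPKM in Control, and Kifc3 and Kif3c overlap between groups.

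In JHU083 against Control, mitotic kinesins changed little and transport kinesins rose slightly. Of the 11 tested mitotic members 2 were higher, 0 lower and 9 not called, where 24.0% of all tested genes changed and 11.5% were higher. The median log2 change of the 11 was 0.07, with a range of -0.15 to 0.48. Without a filter, 1 of 13 was higher, against 3.25% of all genes, and 0 of 13 were lower, against 3.87%. Kif11 averaged 6.20 ± 0.584 FPKM in JHU083 and 4.64 ± 0.290 FPKM in Control (SD, n = 3 each), a log2 change of 0.32 (SE 0.082, adjusted p = 0.0168). Kif20b averaged 2.97 ± 0.342 FPKM in JHU083 and 1.99 ± 0.226 FPKM in Control (SD, n = 3 each), a change of 0.48 (SE 0.14, adjusted p = 0.0285). Both calls were lost without Control replicate 2 (adjusted p = 0.0551 for Kif11 and 0.112 for Kif20b) and without Control replicate 3 (0.0711 and 0.0894), and without JHU083 replicate 3 Kif11 alone was called (0.0645 for Kif20b). The intervals of the 9 others, from -0.39 to 0.60 at their widest, leave out any fall near that seen in WGFT17. In limma on log2(FPKM + 1), Kif15 (adjusted p = 0.0387) and Kif4 (adjusted p = 0.0206) were called higher too.

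Of the 10 tested transport kinesins, 6 rose in JHU083, 0 fell and 4 were not called, where 11.5% of all tested genes were higher. The median log2 change of the 10 was 0.26. The JHU083 libraries lay wholly above the Control libraries for 7 of them, against 31.3% of all tested genes. The 6 were Kif3a (0.36, adjusted p = 0.0106), Kif16b (0.32, adjusted p = 0.00597), Kif3b (0.32, adjusted p = 0.00648), Kif13a (0.29, adjusted p = 0.00359), Kif5b (0.28, adjusted p = 0.0133) and Kif1b (0.24, adjusted p = 0.0158). Kif1c and Kif13b, which rose in WGFT17, had changes of 0.03 (95% interval -0.09 to 0.15) and 0.12 (0.0028 to 0.24) in JHU083 and were not called. Kif13b was called higher with library totals alone (adjusted p = 0.0406) and in limma with a pseudocount of 1 (0.0253) or 0.1 (0.0252). The count stayed at 6 without JHU083 replicate 3 and dropped to 4 without Control replicate 2 or 3, when Kif5b and Kif1b were lost; Kif1b was also lost without JHU083 replicate 2 (adjusted p = 0.0595). Without a filter 7 of 15 were higher, Kif5c among them (0.60, adjusted p = 0.0431), against 3.25% of all genes. Both comparisons with Control use the same 3 Control libraries, so their values for the members are not independent of each other.

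**Figure D5:**
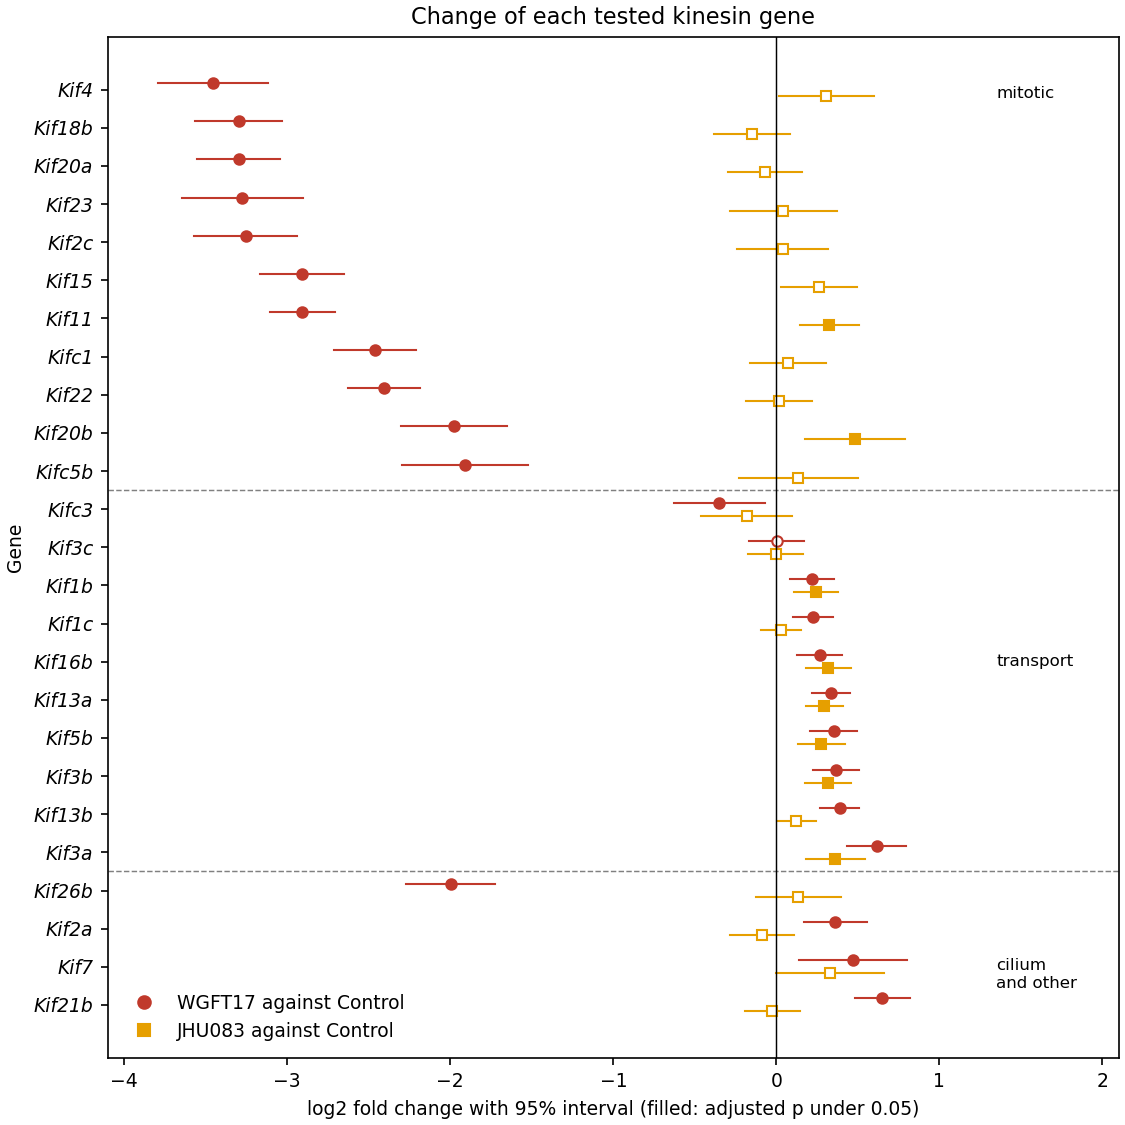
Log2 fold change (horizontal axis) of the 25 tested kinesins with 95% intervals, in WGFT17 against Control (circles) and JHU083 against Control (squares), filled where the adjusted p is under 0.05. The 11 mitotic members lie between -3.46 and -1.91 in WGFT17 and between -0.15 and 0.48 in JHU083, while the transport members lie between -0.35 and 0.61 in both.

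The direct test between the drugs separated the mitotic kinesins and left most transport kinesins uncalled. In WGFT17 against JHU083, 11 of 11 tested mitotic members were lower, where 44.7% of all tested genes changed and 24.4% were lower. Their median log2 change was -3.17, a 9.00-fold lower level, from -3.76 for Kif4 (adjusted p = 5.94e-09) to -2.05 for Kifc5b (adjusted p = 2.79e-06). Without a filter 13 of 13 were lower, against 12.0% of all genes, Kif14 by -3.79 and Kif18a by -2.17. Without JHU083 replicate 3, 11 of 11 were again lower, with a median of -3.13. Of the 10 tested transport kinesins, 3 were higher, 0 lower and 7 not called, where 20.4% of all tested genes were higher. Without a filter 4 of 15 were higher, against 8.95% of all genes, and 1, Kif5c, was lower (-0.64, adjusted p = 0.0122), against 12.0%. The WGFT17 libraries lay wholly above the JHU083 libraries for 3 of the 10, against 27.4% of all tested genes, and wholly below for 11 of the 11 mitotic kinesins, against 25.9%. The 3 called higher were Kif13b (0.27, adjusted p = 0.00201), Kif3a (0.25, adjusted p = 0.027) and Kif1c (0.19, adjusted p = 0.0157). Kif3a lost its call without JHU083 replicate 2 or 3 or WGFT17 replicate 1 or 2 (adjusted p of up to 0.0808), and Kif1c without WGFT17 replicate 3 (adjusted p = 0.0537). The 95% intervals of Kif5b (-0.07 to 0.22), Kif3b (-0.09 to 0.19), Kif13a (-0.08 to 0.15) and Kif16b (-0.19 to 0.09) include 0. Without JHU083 replicate 3, Kif5b was called higher (0.145, adjusted p = 0.044) and Kifc3 lower (-0.286, adjusted p = 0.0483).

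The 4 tested kinesins with other roles went separate ways in WGFT17. Kif26b, a kinesin without known motor activity that acts in cell adhesion and migration, averaged 1.04 ± 0.218 FPKM in WGFT17, 4.51 ± 0.0971 FPKM in JHU083 and 3.85 ± 0.231 FPKM in Control (SD, n = 3 each). It fell by 2.00 on the log2 scale in WGFT17 against Control (adjusted p = 1.41e-07) and by 2.13 against JHU083 (adjusted p = 1.03e-07), or by 2.14 without JHU083 replicate 3 (adjusted p = 1.79e-07). Summed fibroblast markers were lower in WGFT17 too. None of the 11 was at 0 in all libraries of a group, but Lum had 0, 0.08 and 0 FPKM in WGFT17. The 11 markers summed to 237.3 to 248.7 FPKM in WGFT17, 896.2 to 1071 FPKM in JHU083 and 1376 to 1480 FPKM in Control. In JHU083 this sum lay below Control, and Kif26b was not called (0.13, adjusted p = 0.441). Single markers differed there. Dcn (-0.09, adjusted p = 0.555), Pdgfra (-0.07, adjusted p = 0.594) and Twist1 (-0.09, adjusted p = 0.631) were not called in JHU083 against Control either. Col1a1, Col1a2, Col3a1, Pdgfrb, Fbn1 and Postn were called lower. Col1a1 and Col1a2 made up most of the sum. The 9 tested markers were all called lower in WGFT17 against Control, where 30.0% of all tested genes were lower. Their log2 changes ran from -1.07 for Pdgfra to -4.93 for Col3a1. Of the markers under the filter, Lum averaged 0.0267 FPKM in WGFT17 and 1.27 FPKM in Control. Thy1, also under the filter, did not fall in WGFT17 (mean 0.873 FPKM, against 0.723 FPKM in Control). The part of fibroblast RNA in the fall of Kif26b and of the mitotic kinesins was not tested.

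Kif21b, a motor that also restrains microtubule growth, averaged 7.42 ± 0.0850 FPKM in WGFT17, 4.61 ± 0.358 FPKM in JHU083 and 4.39 ± 0.428 FPKM in Control (SD, n = 3 each), a rise of 0.65 in WGFT17 against Control (adjusted p = 2.82e-05). Kif2a, a microtubule depolymerase that is a relative of Kif2c, averaged 8.07 ± 0.261 FPKM in WGFT17, 5.84 ± 0.645 FPKM in JHU083 and 5.82 ± 0.513 FPKM in Control (SD, n = 3 each), a rise of 0.36 (adjusted p = 0.00454). Kif2a and Kif2c thus moved in opposite directions. Kif7, a ciliary regulator of hedgehog signalling, averaged 1.47 ± 0.125 FPKM in WGFT17, 1.32 ± 0.246 FPKM in JHU083 and 0.983 ± 0.0153 FPKM in Control (SD, n = 3 each), a rise of 0.47 in WGFT17 (adjusted p = 0.0192) that was lost without WGFT17 replicate 3 (0.0719) or Control replicate 2 (0.0579). None of the 4 was called in JHU083, where only Kif7 was higher without replicate 3 (0.46, adjusted p = 0.0224). The other 9, Kif6, Kif9, Kif12, Kif19a, Kif21a, Kif24, Kif26a, Kif27 and Kif28, averaged 0 to 0.80 FPKM. Kif24, which acts at centrioles, fell by 1.21 in WGFT17 against Control in the fit without a filter (adjusted p = 4.69e-05), and Kif19a by 0.59 (adjusted p = 0.0477).

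Partners of the mitotic kinesins moved with them in WGFT17. Of 31 listed genes of the spindle, the checkpoint, cleavage and their transcription factors, all tested, 28 fell, 1 rose and 2 were not called in WGFT17 against Control, with a median log2 change of -2.83, where 30.0% of all tested genes were lower. In JHU083 against Control 2 rose, 1 fell and 28 were not called, with a median of 0.09, where 11.5% of all tested genes were higher and 12.5% lower. Without JHU083 replicate 3, 2 rose, 2 fell and 27 were not called. Racgap1, the partner of Kif23 in centralspindlin, averaged 1.22 ± 0.0961 FPKM in WGFT17, 9.27 ± 0.442 FPKM in JHU083 and 8.39 ± 0.444 FPKM in Control (SD, n = 3 each). Tpx2, which helps Kif11 and Kif15 bind the spindle, averaged 2.49 ± 0.0702 FPKM in WGFT17, 14.4 ± 0.727 FPKM in JHU083 and 13.7 ± 0.404 FPKM in Control (SD, n = 3 each). Plk1, a mitotic kinase, fell by 3.70 in WGFT17 against Control (adjusted p = 8.24e-11) and by 0.24 in JHU083 (adjusted p = 0.0241). Cenpe, a kinetochore kinesin with another symbol, fell by 2.49 in WGFT17 (adjusted p = 8.41e-08) and rose by 0.45 in JHU083 (adjusted p = 0.0342), a call lost without JHU083 replicate 3 (0.30, adjusted p = 0.0777). Mki67, a marker of cycling cells, fell by 2.91 in WGFT17 (adjusted p = 2.01e-08) and rose by 0.55 in JHU083 (adjusted p = 0.0129). Of the 25 partners with a promoter entry, 19 (76%) held TTTGAA or TTCGAA.

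Some cargo adaptors of the transport kinesins rose in WGFT17. Of 20 tested, 9 rose, 2 fell and 9 were not called in WGFT17 against Control (median 0.19), where 28.0% of all tested genes were higher. In JHU083 against Control 4 rose, 0 fell and 16 were not called (median 0.11), where 11.5% of all tested genes were higher, and without JHU083 replicate 3, 6 rose and 1 fell. Rhot1, which ties mitochondria to conventional kinesin, averaged 10.7 ± 0.262 FPKM in WGFT17, 6.38 ± 0.476 FPKM in JHU083 and 5.56 ± 0.0709 FPKM in Control (SD, n = 3 each), a rise of 0.83 in WGFT17 (adjusted p = 6.26e-07). Arl8a, a small GTPase that couples lysosomes to kinesins, averaged 67.4 ± 3.36 FPKM in WGFT17, 45.5 ± 1.06 FPKM in JHU083 and 43.8 ± 0.364 FPKM in Control (SD, n = 3 each), a rise of 0.51 (adjusted p = 3.34e-06). Zfyve27, the adaptor protrudin, rose in WGFT17 (0.65, adjusted p = 5.9e-06) and in JHU083 (0.27, adjusted p = 0.0124). Madd, an adaptor of Kif1b, also rose in both, by 0.33 in WGFT17 (adjusted p = 0.000149) and 0.27 in JHU083 (adjusted p = 0.00357). Spag9, a scaffold that binds conventional kinesin, rose by 0.29 in WGFT17 (adjusted p = 0.00186) and 0.32 in JHU083 (adjusted p = 0.0047).

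Genes of dynein, the motor of the opposite direction, were called in shares near those of all tested genes. Of 24 tested dynein and dynactin genes, 8 rose, 5 fell and 11 were not called in WGFT17 against Control (median 0.04), where 28.0% of all tested genes were higher and 30.0% lower. In JHU083 against Control 3 rose, 3 fell and 18 were not called (median 0.006), beside 11.5% higher and 12.5% lower, and without JHU083 replicate 3, 6 rose and 3 fell. Nde1, a dynein regulator that acts in mitosis, fell by 0.69 in WGFT17 (adjusted p = 2.34e-06), and Hook2, a cargo adaptor, rose by 0.65 (adjusted p = 0.00029). Dynll1, a light chain, fell by 0.42 in WGFT17 (adjusted p = 0.000204) and by 0.40 in JHU083 (adjusted p = 0.00224). Dynlrb1, another light chain, was not called in WGFT17 (-0.10, adjusted p = 0.102) and fell by 0.35 in JHU083 (adjusted p = 0.00159).

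Most genes of the track itself fell in WGFT17. Of 13 tested tubulins, 11 fell, 1 rose and 1 was not called in WGFT17 against Control (median -0.79), where 30.0% of all tested genes were lower. In JHU083 against Control 6 fell, 0 rose and 7 were not called (median -0.19), where 12.5% were lower, and the counts were also 6, 0 and 7 without JHU083 replicate 3 (median -0.10). Tuba1a averaged 65.1 ± 5.52 FPKM in WGFT17, 251 ± 22.4 FPKM in JHU083 and 331 ± 9.98 FPKM in Control (SD, n = 3 each). Tubb5 averaged 136 ± 4.16 FPKM in WGFT17, 278 ± 12.0 FPKM in JHU083 and 285 ± 1.71 FPKM in Control (SD, n = 3 each). Tuba4a was the tubulin that rose in WGFT17 (0.27, adjusted p = 0.00674), while it fell by 0.51 in JHU083 (adjusted p = 0.00131). Tubulin genes are alike in sequence, so the split of reads among them is uncertain.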

How the data were processed

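Libraries of poly(A) RNA kept strand and were read as pairs of 150 bases, per the labels' protocols. Tools listed, without roles, in the submitters' processing notes are HISAT2 2.2.1 with StringTie 2.1.6, cutadapt 1.9, edgeR and DESeq2, with mm9 as the build; coordinates of 33 of the 42 members equal GRCm38 (GENCODE M21), the build used here for gene positions. Per the file headers, the deposited table holds expected counts (estimated counts, whole numbers, not scaled) and FPKM, made by the authors. The pattern of low counts is that of values derived from coverage, with about 4 counts per read pair.

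A mean FPKM of 1 or more left 11798 genes, which were tested on the counts with edgeR 4.0.16 (R 4.3.3): quasi-likelihood, TMM factors, the 9 libraries in 1 fit, Benjamini-Hochberg adjustment over all tested genes, called under 0.05. Levels are FPKM; SEs and 95% intervals belong to the count fit. No test was made over a list. The method was tested on simulated data. Members with a mean FPKM of at least 1 were all named; of each other list, those with the smallest adjusted p and Cenpe, Mki67, Klc1 and Kifap3 were chosen. Members and lists were chosen with earlier results of these data known.

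Alternatives were median-ratio and upper-quartile factors, library totals, no filter, filterByExpr, at least 5 FPKM, 2 groups only, counts divided by 4, a replicate block, DESeq2 1.42.0, limma 3.58.1 on log2 FPKM with a pseudocount of 1 or 0.1, and leaving out each library. Promoters are those of RefSeq (GRCm38.p6); 33 of the 42 members had an entry.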

Additional observations from a re-analysis of the deposited data

How the results depend on the processing

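The falls of the 11 mitotic kinesins in WGFT17, against Control and against JHU083, kept their direction and their call under every alternative that tested them; a minimum of 5 FPKM left out most of them. Under that minimum, 2 kinesins were lower in each of these comparisons, 5 were higher in JHU083 against Control, 4151 and 3305 genes were called in WGFT17 against Control and against JHU083, and the mitotic median against JHU083 was -2.91. The limma fit gave mitotic medians of -1.78 (against Control) and -1.93 (against JHU083) with a pseudocount of 1, which pulls low values together, and -2.63 and -2.94 with 0.1; the transport median with 0.1 was 0.40 in WGFT17 and 0.349 in JHU083 against Control. The share of higher among called genes was 60.9% in limma and 48.3% in the main test for WGFT17 against Control, and 72.3% in limma, 58.7% with library totals alone and 47.7% in the main test for JHU083 against Control. Without 1 library in turn, 1534 to 3731 genes were called in JHU083 against Control and 4 to 8 kinesins were higher.

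Small changes that were not called turned sign. Kif3c in WGFT17 against Control was -0.0123 with upper-quartile factors and -0.0325 to 0.0553 without 1 library. In JHU083 against Control, limma with a pseudocount of 1 and 0.1 gave 0.0251 and 0.0269 for Kif20a, 0.0578 and 0.0694 for Kif21b, 0.00286 and 0.00309 for Kif2a, and 0.0706 and 0.088 for Kif3c; library totals alone gave 0.0112 for Kif21b and 0.0296 for Kif3c. Without 1 library the range was -0.0023 to 0.0834 for Kif1c, -0.076 to 0.056 for Kif21b, -0.0626 to 0.0591 for Kif22, -0.143 to 0.154 for Kif23, -0.0184 to 0.0659 for Kif2c, -0.0369 to 0.0396 for Kif3c and -0.0343 to 0.139 for Kifc1. In WGFT17 against JHU083, Kif1b was 0.00519 without a filter, 0.011 with filterByExpr and -0.084 to 0.0194 without 1 library, Kif3b was -0.0129 to 0.095, and Kif3c was -0.00906 with library totals and -0.0376 to 0.0622 without 1 library. The cause was not tested.

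Pairing by replicate number was checked on each library's deviations from its group mean. These deviations correlated at -0.0338 to 0.161 between same-numbered libraries of different groups and at -0.146 to 0.133 between differently numbered ones. A check on 3 libraries a group cannot settle whether equal numbers mark pairs. With the replicate number as a block, 6530 genes were called in WGFT17 against Control, 2330 in JHU083 against Control and 4907 in WGFT17 against JHU083; among kinesins Kifc3 alone lost its call (-0.353, adjusted p = 0.0523). Estimated counts of the tested mitotic kinesins were 116 to 533 in WGFT17 libraries, which limits the precision of their folds.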

Other observations

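Kif5a and Kif1a, neuronal kinesins under the filter, were highest in JHU083 replicate 2; these genes were singled out after their values were seen. Kif5a had 0.56, 0.82 and 0.89 FPKM in WGFT17, 0.72, 1.31 and 0.33 FPKM in JHU083, and 0.35, 0.30 and 0.28 FPKM in Control. Kif1a, a carrier of synaptic vesicle precursors, had 0.80, 1.07 and 0.87 FPKM in WGFT17, 0.73, 1.44 and 0.57 FPKM in JHU083, and 0.53, 0.65 and 0.57 FPKM in Control. The neurofilament gene Nefl showed the same library on top, with 0.76, 1.01 and 1.08 FPKM in WGFT17, 1.20, 4.36 and 0 FPKM in JHU083, and 0, 0.03 and 0 FPKM in Control. Summed over 10 neuron markers, FPKM were 11.9 to 13.2 in WGFT17, 23.8 to 43.7 in JHU083 and 33.6 to 37.3 in Control, with most of the sum from the tubulin Tubb3. Among these markers Tubb3, Syp and Gap43 were highest in other libraries than JHU083 replicate 2. Mean FPKM of Nefl, Nefm, Rbfox3 and Stmn2 lay above Control in WGFT17, and those of Tubb3, Snap25, Syt1, Syp and Gap43 lay below. The part of neuronal RNA in the rise of Kif5a in WGFT17 was not tested.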
